A study of Mus musculus with 20 samples.

Results

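The mitochondrial carriers of the Slc25 family were examined in the translatome of mouse epididymal adipose tissue (epiAT) in obesity and after weight loss (WL). Members were all genes of the counts table whose symbol is Slc25a followed by a number, which gave 47 of 46078 genes, and all 47 passed the filter on low counts. Several passed it through very few libraries, as described with their values. The mice carried an adiponectin-driven, tamoxifen-inducible Cre and the NuTRAP reporter (AdipoERCre x NuTRAP), and every mouse of every group received tamoxifen by gavage before the diets began. Polysomes with GFP-tagged ribosomes were pulled down from the lysate of the frozen depot and their RNA was sequenced (TRAP–seq), so each library reads ribosome-bound RNA of 1 mouse, enriched for but not limited to adipocytes. C mice were on chow to 18 weeks of age and H mice had 12 weeks of high-fat diet (HFD) at that age. HC mice had 12 weeks of HFD and then 8 weeks of chow, with CC_s as the chow control of 26 weeks. HH mice had 25 weeks of HFD, with CC_l as the chow control of 31 weeks, and HHC mice had 25 weeks of HFD and then 8 weeks of chow, with CCC as the chow control of 39 weeks. Per the study's methods, controls had a low-fat chow during HFD feeding, and HC, HHC, CC_s and CCC mice then had a different, standard chow. Both diets are called chow here. The 4 groups up to 26 weeks of age, here the short arm, held 3 mice each, and the 4 later groups, the long arm, held 2 mice each.

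Most Slc25 proteins sit in the inner membrane of mitochondria and move metabolites, nucleotides, cofactors and ions between the matrix and the cytosol, mostly by exchanging one substrate for another. Slc25a17 is a carrier of peroxisomes. In adipocytes they link fuel oxidation to lipid synthesis: citrate leaves through the citrate carrier as the carbon source of fatty acid synthesis, acylcarnitines enter for oxidation, and ADP and phosphate enter for ATP synthesis. Amino acid carriers feed catabolism, mitoferrins bring in iron for heme and iron–sulfur clusters, and other members bring in NAD, coenzyme A, folate or glutathione.

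Library depth ranged from 10710277 to 36738954 counts, and levels are given as CPM, the counts per 1000000 counts of a library after TMM scaling. In 4 libraries, C 1, C 2, HC 3 and CCC 2, the summed level of the nuclear-retained RNAs Malat1, Neat1, Meg3 and Kcnq1ot1 stood at 20395 CPM or more, against at most 12402 CPM in the other 16. In those 4 libraries the 10 adipocyte markers summed to 19482 to 36644 CPM and the 47 carriers to 1359 to 1749 CPM, whereas in the other 16 the carriers summed to 2060 CPM or more (plot of nuclear-retained RNA against carrier levels). Because C 1 and C 2 are 2 of the 3 controls of H, the H comparison is also given without them. In CC_l 1 the 9 spermatid markers summed to 3521 CPM and in HC 3 to 551 CPM, against at most 132 CPM elsewhere. The 10 macrophage markers summed to 224 to 408 CPM in C and 686 to 4166 CPM in H, and to 228 to 436 CPM in CC_l and 4115 to 5154 CPM in HH, while the adipocyte markers stood at 70540 to 81160 CPM in CC_l and 30455 to 34892 CPM in HH. The 6 endothelial markers summed to 228 to 546 CPM in C and 1088 to 1582 CPM in H, and to 134 to 148 CPM in CC_l and 711 to 1338 CPM in HH, with 4 called higher in H and 6 in HH. The 6 markers of adipocyte progenitors summed to 568 to 1346 CPM in C and 862 to 3178 CPM in H, and to 382 to 620 CPM in CC_l and 3334 to 5408 CPM in HH, with 2 and 4 called higher. After WL, 0 endothelial markers were called in HC and 2 were called lower in HHC, and 1 progenitor marker was called higher in HC and 0 in HHC. In such libraries fewer cells of a type and less RNA per cell cannot be told apart, and the part of these shifts in the carrier results was not tested.

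**Figure D1:**
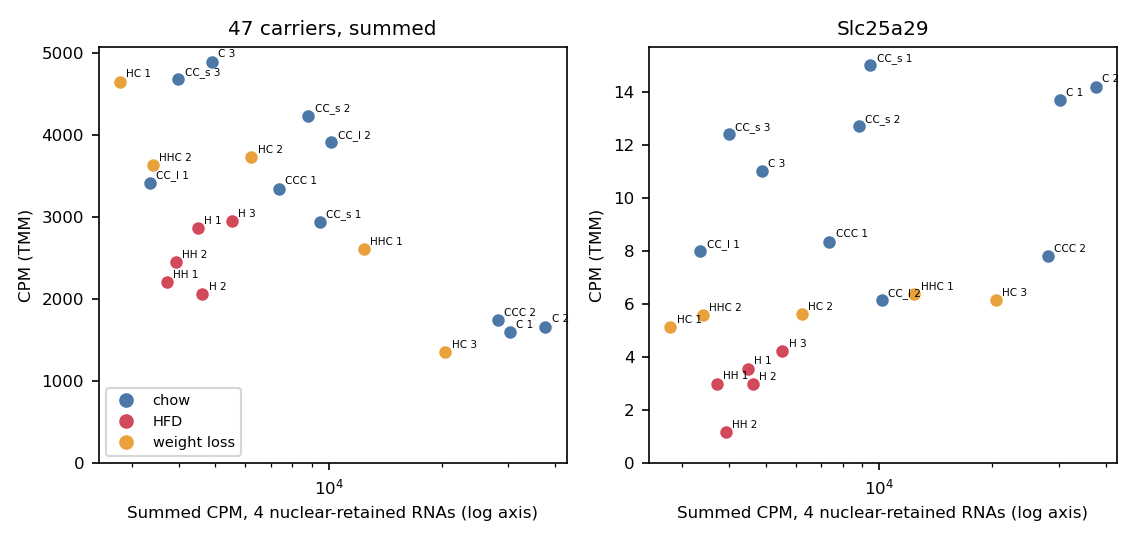
Each point is 1 of the 20 libraries, with the summed CPM of 4 nuclear-retained RNAs on a log x axis and, on the y axis, the summed CPM of the 47 carriers (left) or the CPM of Slc25a29 (right); colours give chow, HFD and weight loss groups. The libraries C 1, C 2, HC 3 and CCC 2 lie at the right with the lowest carrier sums. Their Slc25a29 levels were 13.7, 14.2, 6.15 and 7.8 CPM. The other libraries of their groups were lower in C (11 CPM) and HC (5.15 and 5.62 CPM) and higher in CCC (8.36 CPM).

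Set per kilobase of exon, the carriers differed widely in level, and the leading ones were carriers of ADP/ATP, citrate, phosphate, glutathione and dicarboxylates. Over the 10 chow libraries, Slc25a4, the ADP/ATP carrier of muscle and fat, had the highest median level at 160 CPM per kb, followed by the citrate carrier Slc25a1 at 130 CPM per kb, the phosphate carrier Slc25a3 and the glutathione carrier Slc25a39, both at 112 CPM per kb, the dicarboxylate carrier Slc25a10 at 73.7 CPM per kb and the second ADP/ATP carrier Slc25a5 at 62.8 CPM per kb. The ranges of these 6 overlapped, from 16.4 to 320 CPM per kb for Slc25a1 alone, so their order is not separated by these mice. In all, 4 members reached a median of at least 100 CPM per kb, 17 of at least 10 and 34 of at least 1. The other 13 stayed below 1 CPM per kb, among them the germ-cell ADP/ATP carrier Slc25a31, the aspartate/glutamate carrier Slc25a13 of liver and the liver carrier Slc25a47. Its sister Slc25a12, the aspartate/glutamate carrier of muscle and brain, stood at 1.17 CPM per kb, with a range of 0.673 to 1.69 against 0 to 0.66 for Slc25a13. Of the mitoferrins, Slc25a28 stood at 12.7 CPM per kb and Slc25a37, the erythroid one, at 3.12 CPM per kb, and their ranges over chow libraries, 10.8 to 17.4 and 2.72 to 9.62, did not overlap.

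**Figure D2:**
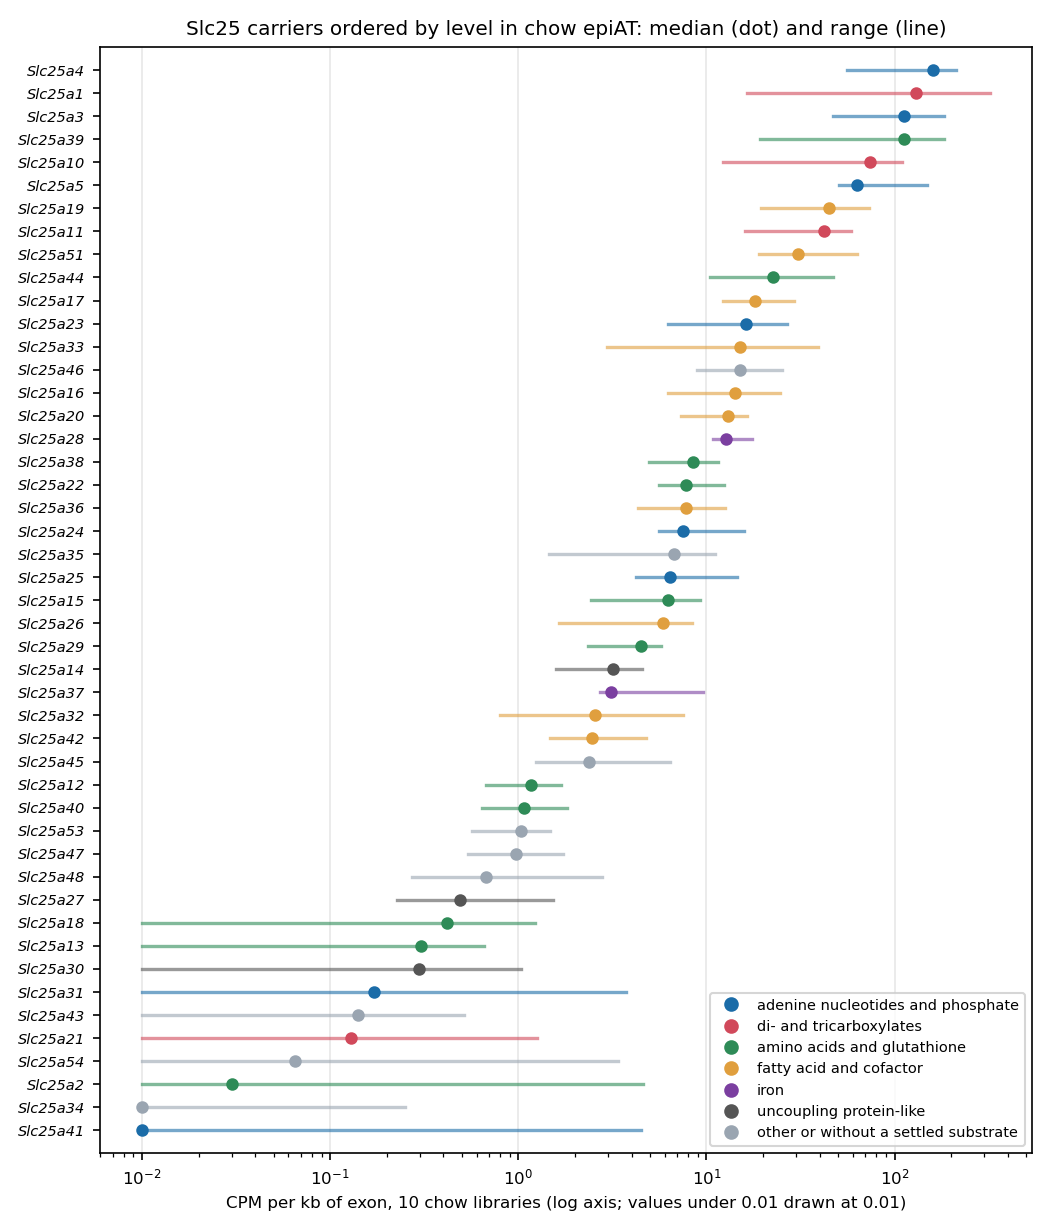
For each of the 47 carriers, the dot is the median and the line the range of CPM per kb of exon over the 10 chow libraries on a log axis, coloured by substrate group. Slc25a4 leads at 160 CPM per kb, 34 carriers reach 1 CPM per kb, and carriers with a line to the left edge had no counts in at least 1 chow library.

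The diet comparisons addressed which carriers differ in obesity and which still differ after WL. Slc25a29, the carrier of basic amino acids, was called lower in H, HC and HH. The mitoferrin Slc25a28 and the ornithine carrier Slc25a15 were called lower in HH. No member was called higher in any of the 4 diet comparisons. A member was called when its nominal p was under 0.01 and its log2 fold change at least 1 in size, by the quasi-likelihood test of edgeR over all 20 libraries.

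In H against C, 0 members were called higher, where 3.57% of the 21464 tested genes were, and 1 lower (Slc25a29), where 2.92% of tested genes were. By a Benjamini–Hochberg adjusted p under 0.05 the same member was called, against 2.12% of all genes. The median log2 fold change of the 47 members was -0.34, beside -0.15 for all tested genes, and 18 were above 0, where 42.8% of genes were. That median rested on the controls: without C 3 it was 0.24 (all genes 0.00) with 6 members called, 3 higher and 3 lower, where 4.09% and 4.4% of 21405 genes were, and without C 1 and C 2, HC 3 and CCC 2 it was -0.46 (all genes 0.29) with 1 member called higher and 8 lower, where 4.22% and 4.29% of 22811 genes were. All 3 H libraries lay below all 3 C libraries for 9 members, at a background of 11.8%, and above them for 3, at a background of 13.4%.

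HC against CC_s gave 0 members called higher and 1 lower, again Slc25a29, at backgrounds of 1.57% and 0.172% of all genes. No gene of the whole table passed an adjusted p under 0.05 there with edgeR (0% called), while 5 members and 8.69% of all genes had an unadjusted p under 0.05 and DESeq2 gave Slc25a29 an adjusted p of 0.021. The median of the members was 0.00 on the log2 scale, beside 0.27 for all genes, with 23 of 47 above 0, where 64.1% of genes were. The HC libraries lay wholly below CC_s for 4 members (background 5.82%) and wholly above for 3 (background 8.01%).

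By the edgeR test over all 20 libraries the long HFD gave the most calls, but not under every alternative. With DESeq2, H and HH each had 4 members called, where 10.1% and 10.8% of all genes were called. Without the filter on low counts each again had 4, where 7.24% and 8.36% of genes were called. In HH against CC_l, 3 members were called lower (Slc25a28, Slc25a29 and Slc25a15), where 1.88% of tested genes were, and 0 higher, where 4.92% of genes were. Slc25a28 also passed an adjusted p under 0.05, as did 2.07% of genes. The member median was -0.69, beside -0.23 for all genes, and 33 of 47 members were below 0, where 57.3% of genes were. The 33 include Slc25a2, Slc25a31, Slc25a41 and Slc25a54, with 206, 262, 195 and 198 counts in CC_l 1 and 2, 0, 0 and 2 in CC_l 2. Their HH values rest on CC_l 1, the library with the highest spermatid marker sum, and say nothing of the family. Both HH libraries lay below both CC_l libraries for 26 members, at a background of 28.9% of genes, and above them for 9, at a background of 26.3%. With the 4 libraries rich in nuclear-retained RNA left out of the shared fit, a choice made after seeing the data, the HH comparison called 9 members lower and 0 higher, where 4.76% and 6.08% of 22811 genes were called. With the log2 level of nuclear-retained RNA as a covariate, also chosen after seeing the data, it called 9 lower and 1 higher, where 6.34% and 8.64% of 21464 genes were called.

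After WL from the long HFD the family median lay near that of all genes. HHC against CCC had 0 members called higher and 1 lower (Slc25a18), at backgrounds of 0.447% and 2.67%. The edgeR test gave no gene an adjusted p under 0.05 in this comparison (0% called), and 3 members and 10.7% of all genes had an unadjusted p under 0.05. The median was 0.11, beside -0.06 for all genes. Both HHC libraries lay below both CCC libraries for 6 members (background 20.3%) and above them for 5 (background 8.49%). The median difference between the HH effect and the HHC effect over the 47 members was -0.96 on the log2 scale, beside -0.01 over all genes, and it was -0.61 without CCC 2 and -0.52 without HHC 2. In the test of that difference for single genes, 0 members had a nominal p under 0.01, where 5.84% of genes had, and 0 passed an adjusted p under 0.05, where 0.815% did. The H effect against the HC effect gave 0 members with a nominal p under 0.01 (background 2.99%), and the H effect against the HH effect likewise 0 (background 0.913%). In both of these tests 0% of all genes had an adjusted p under 0.05.

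**Figure D3:**
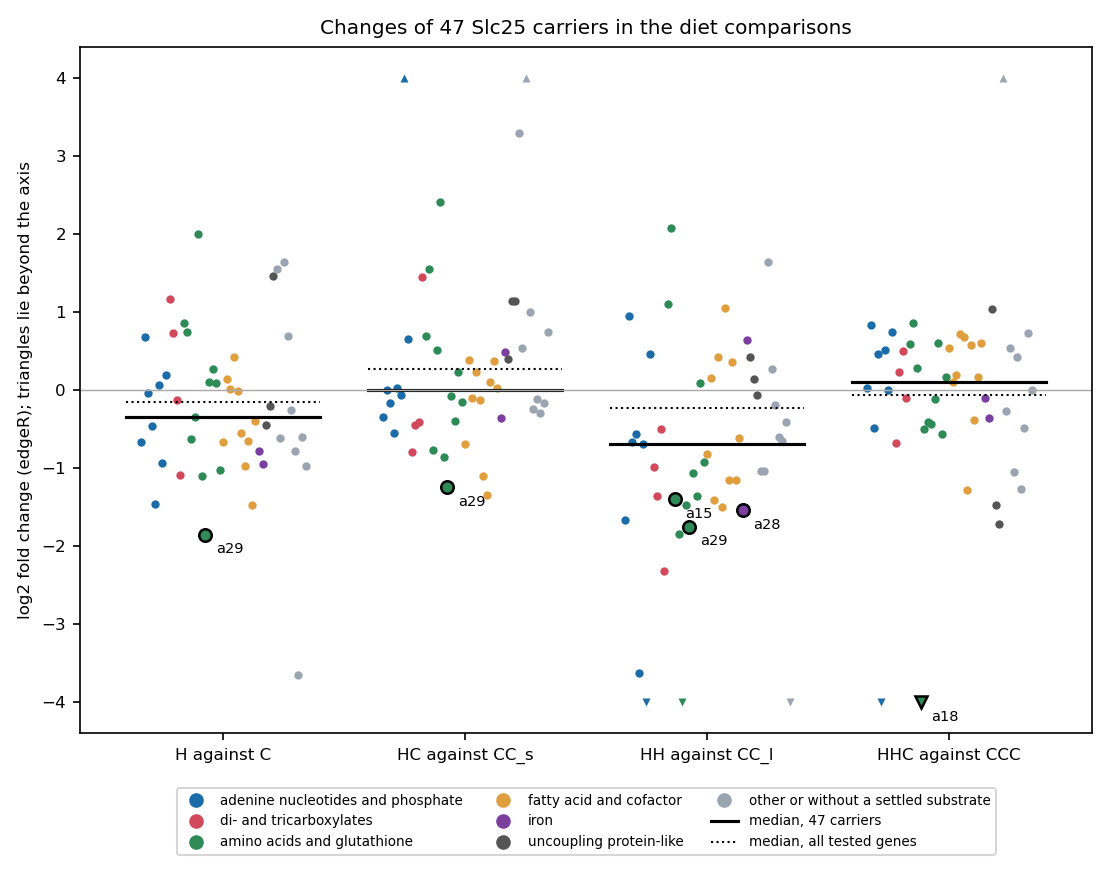
Each point is 1 of 47 carriers in 1 of the 4 diet comparisons, with its edgeR log2 fold change on the y axis, coloured by substrate group and outlined where called; triangles lie beyond the axis, solid lines are the medians of the carriers and dotted lines those of all tested genes. The solid line lies below the dotted one by 0.46 in HH against CC_l and above it by 0.16 in HHC against CCC.

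The chow controls also differed among themselves. Between C and CC_s, and between CC_l and CCC, age and the kind of chow changed together and cannot be told apart. In CC_s against C, 0 members were called higher, where 0.592% of genes were, and 2 lower, the erythroid mitoferrin Slc25a37 and Slc25a43, where 1.85% of genes were. Without C 3 this comparison called 8 members higher and 2 lower, where 5.24% and 4.97% of genes were. In CCC against CC_l 1 member, the folate carrier Slc25a32, was called higher and 0 lower, at backgrounds of 0.755% and 1.91%. These comparisons share their mice with the diet comparisons, and C 1 and C 2 carry the difference of Slc25a37, at 57.9 and 41.3 CPM against 24.8 CPM in C 3. No gene had an adjusted p under 0.05 in either (0%), and 6 members in each had an unadjusted p under 0.05, where 11.2% and 11.5% of genes had.

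**Figure D4:**
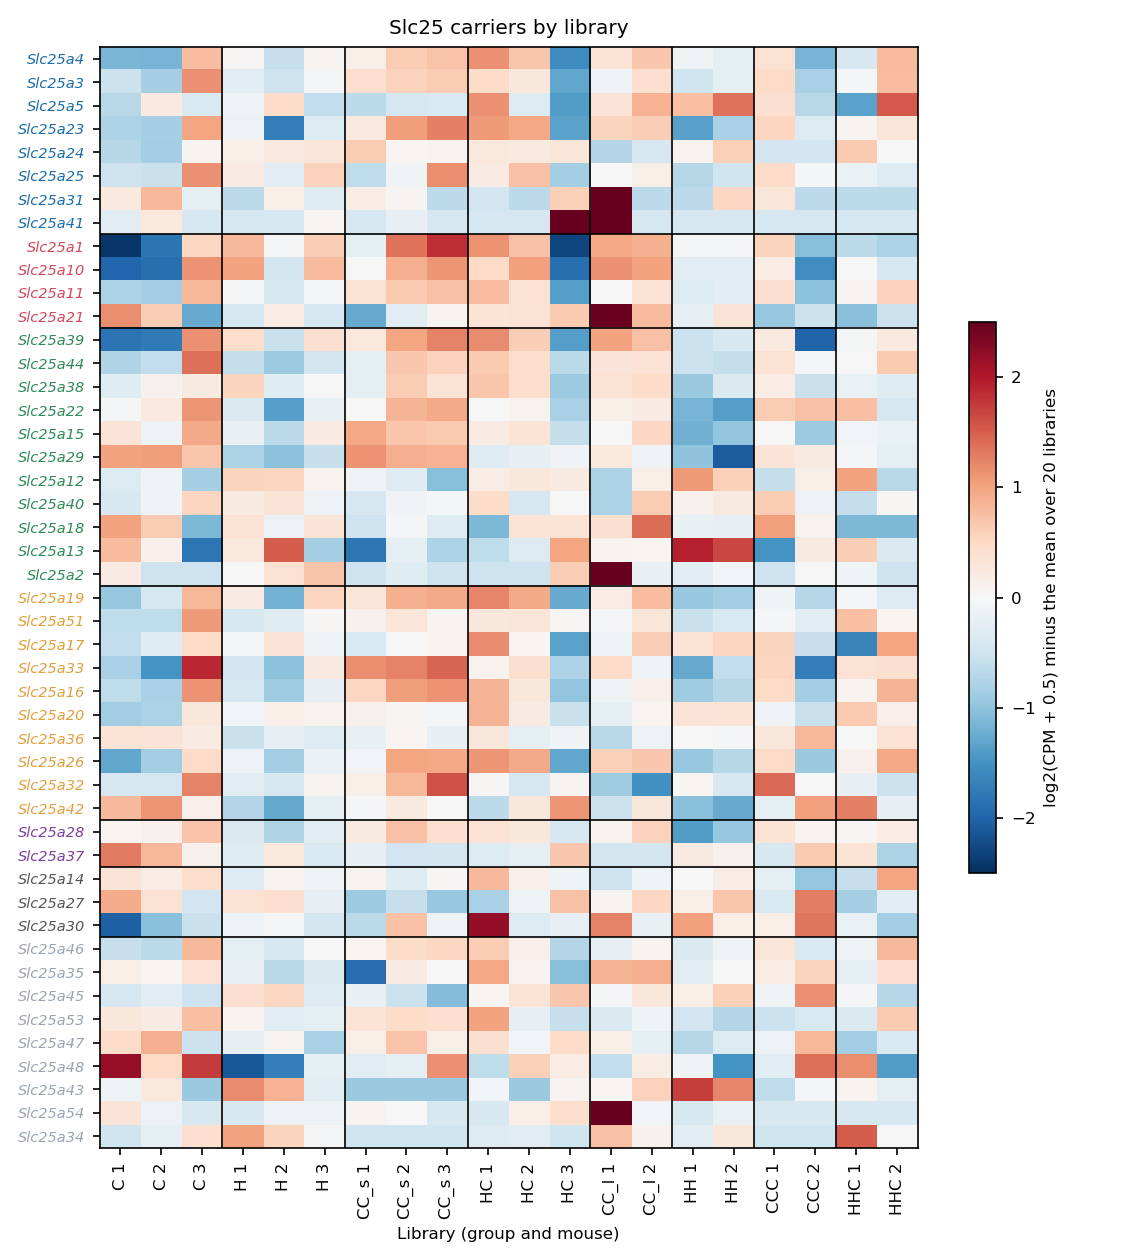
Rows are the 47 carriers, grouped and coloured by substrate, columns the 20 libraries, and colour the log2(CPM + 0.5) minus its mean over all libraries. Slc25a4, Slc25a3, Slc25a1, Slc25a10, Slc25a11 and Slc25a39 are blue in C 1, C 2, HC 3 and CCC 2, which does not hold for every carrier of their groups. Slc25a29 is blue in all H and HH libraries, and 5 carriers (Slc25a31, Slc25a41, Slc25a21, Slc25a2 and Slc25a54) are dark red in CC_l 1.

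Of the 4 members called in any diet comparison, 3 belonged to the 11 amino acid and glutathione carriers among the 47 members. With so few calls this share was not tested, and the call of Slc25a18 rests on 41 counts. Slc25a29 (ENSMUSG00000021265; mm10 chr12:108825873-108835883, minus strand, with no annotated gene overlapping its exons) brings lysine, arginine and other basic amino acids into mitochondria. Its level was 13.7, 14.2 and 11 CPM in C and 3.57, 2.99 and 4.22 CPM in H, and 15, 12.7 and 12.4 CPM in CC_s against 5.15, 5.62 and 6.15 CPM in HC. In the long arm it was 7.99 and 6.16 CPM in CC_l and 3.01 and 1.18 CPM in HH, and 8.36 and 7.8 CPM in CCC against 6.37 and 5.6 CPM in HHC. In each comparison every HFD or WL library lay below every library of its own chow control, which held for no other member and for 0.233% of all tested genes, while 0 members and 0.405% of genes lay above in all 4, the HC values lay between those of H and CC_s, and the HHC values between those of HH and CCC. The log2 fold change was -1.85 in H against C (SE 0.39, edgeR adjusted p = 0.02), -1.24 in HC against CC_s (SE 0.38, adjusted p = 0.54), -1.75 in HH against CC_l (SE 0.48, adjusted p = 0.064) and -0.43 in HHC against CCC (SE 0.46, adjusted p = 0.78). Over 15 alternatives the H value ran from -1.98 to -1.50, with adjusted p from 1.1e-06 to 0.13, and was called in 14; the exception, at -1.50, left out C 1 and C 2 with the other libraries rich in nuclear-retained RNA. The HC value ran from -1.37 to -1.14 with adjusted p from 0.021 to 0.96 and was called in 10 of 15 alternatives. It lost the call without CC_s 1 (-1.15), HC 1 (-1.18) or HC 2 (-1.24), and also without HC 3 and the other such libraries (-1.37, SE 0.46, adjusted p = 0.81). The HH value ran from -2.56 to -1.21 with adjusted p from 0.0013 to 0.48 and was called in 9 of 13, with the call lost without CC_l 1 (-1.54) or HH 2 (-1.21). Without the filter on low counts the HC and HH calls were both lost. The HH call was also lost when just HH and CC_l were fitted. The H effect differed from the HC effect by -0.61 (SE 0.53, adjusted p = 0.73) and the HH effect from the HHC effect by -1.32 (SE 0.66, adjusted p = 0.34), so a smaller difference after WL was not shown by the tests. Its chow level was also lower in CC_l and CCC, at 6.16 to 8.36 CPM, than in C and CC_s, at 11 to 15 CPM.

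Slc25a15, which exchanges ornithine and citrulline for the urea cycle, stood at 32.8, 24 and 50.9 CPM in C and 23.2, 16.6 and 30.4 CPM in H, and 52, 42.9 and 41.6 CPM in CC_s against 30.3, 33.3 and 17.3 CPM in HC. The long arm gave 26.6 and 37.7 CPM in CC_l and 11.2 and 13.1 CPM in HH, and 26.3 and 13.7 CPM in CCC against 25 and 23.5 CPM in HHC. The HH libraries, at 11.2 and 13.1 CPM, were the lowest of all 20, and the fold change in HH against CC_l was -1.40 on the log2 scale (SE 0.45, adjusted p = 0.11). It was -0.62 in H (SE 0.36, adjusted p = 0.4), -0.76 in HC (SE 0.36, adjusted p = 0.57) and 0.28 in HHC (SE 0.44, adjusted p = 0.87), none of them called. Without the 4 libraries rich in nuclear-retained RNA the H value was -1.01 (SE 0.34, adjusted p = 0.12). The HH call was lost without HH 1 (-1.28), HH 2 (-1.50) or CC_l 2 (-1.10), and its adjusted p ran from 0.011 to 0.64 over 13 alternatives. The call was also lost without the filter on low counts and with the replicate number as a block. The difference between the HH and HHC effects was -1.68 (SE 0.62, adjusted p = 0.2).

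The glutamate carrier Slc25a22 did not pass the call by edgeR over all libraries in either obese group. It measured 33.4, 40.3 and 74.1 CPM in C and 26.4, 12.9 and 29.9 CPM in H, and 34.2, 61.9 and 66 CPM in CC_s against 34, 36.3 and 19.3 CPM in HC. At the later ages it measured 37.8 and 39.2 CPM in CC_l and 15 and 12.8 CPM in HH, and 53.3 and 57.3 CPM in CCC against 58 and 25.2 CPM in HHC. The obese libraries lay below their controls in both comparisons, with log2 fold changes of -1.10 in H (SE 0.42, edgeR adjusted p = 0.19) and -1.47 in HH (SE 0.51, edgeR adjusted p = 0.15). The H value was called in 4 of 15 alternatives, among them DESeq2 (-1.15, adjusted p = 0.041) and the fit without the 4 libraries rich in nuclear-retained RNA (-1.58, SE 0.47, adjusted p = 0.087), and was -0.68 without C 3. The HH value was called in 7 of 13, among them DESeq2 (-1.49, adjusted p = 0.032). The other glutamate carrier, Slc25a18, was called in HHC against CCC, where it had 41 counts in the 2 CCC libraries and none in HHC, so that its level was at least 11.9-fold lower against a limit of 3 counts over the group. The call was lost without CCC 1 or HHC 2 and under RLE scaling, the replicate block and halved counts, among others. With 0 to 2.36 CPM over all 20 libraries, Slc25a18 was close to the limit of detection throughout.

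Slc25a44, the branched-chain amino acid carrier known from brown fat, was among the more abundant, at 37.7, 41.5 and 167 CPM in C and 41.9, 33.8 and 46 CPM in H, and 53.6, 102 and 95.1 CPM in CC_s against 100, 85.9 and 39.5 CPM in HC. The long arm held 79.5 and 82 CPM in CC_l and 43.7 and 41.8 CPM in HH, and 82.2 and 62.4 CPM in CCC against 63.2 and 99.9 CPM in HHC. Among the C libraries C 3 stood far above the others, and the fold change of -1.02 in H (SE 0.49, adjusted p = 0.3) became 0.03 without it and -1.93 (SE 0.34, adjusted p = 0.016) without C 1 and C 2 and the other libraries rich in nuclear-retained RNA. In HH it was -0.92 (SE 0.60, adjusted p = 0.44). The glutathione carrier Slc25a39 showed the same split of the controls, with 59.3, 62.6 and 474 CPM in C and 290, 146 and 284 CPM in H, and 258, 423 and 505 CPM in CC_s against 487, 328 and 81.6 CPM in HC. In the long arm it had 433 and 357 CPM in CC_l and 147 and 163 CPM in HH, and 253 and 53 CPM in CCC against 210 and 252 CPM in HHC, with both HH libraries below both CC_l libraries and a log2 fold change of -1.35 (SE 0.93, adjusted p = 0.46).

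The aspartate/glutamate carriers, which serve the malate–aspartate shuttle, were not called in any diet comparison by the edgeR test over all 20 libraries. Each was called in 1 of 15 alternatives in H and in 1 of 13 in HH. Slc25a12 stood at 8.5, 9.92 and 5.91 CPM in C and 16.4, 16.1 and 11.7 CPM in H, and 10.2, 8.68 and 4.94 CPM in CC_s against 12.5, 13.4 and 12.8 CPM in HC. Later it stood at 6.16 and 12.4 CPM in CC_l and 23.5 and 16.7 CPM in HH, and 7.11 and 12.2 CPM in CCC against 22.5 and 6.57 CPM in HHC. Every H, HC and HH library lay above its controls, and the log2 fold change in HH was 1.11 (SE 0.55, adjusted p = 0.31), which was not a call. Slc25a13 measured 2.51, 1.39 and 0 CPM in C and 1.6, 4.46 and 0.48 CPM in H, and 0, 0.983 and 0.507 CPM in CC_s against 0.618, 0.883 and 2.97 CPM in HC. In the long arm it measured 1.34 and 1.31 CPM in CC_l and 6.2 and 5.04 CPM in HH, and 0.119 and 1.54 CPM in CCC against 2.18 and 0.862 CPM in HHC, with a log2 fold change of 2.08 in HH (SE 1.67, adjusted p = 0.53). Of the 11 amino acid and glutathione carriers, 8 had a negative fold change in HH, with a median of -1.35, and 5 in H, with a median of 0.09. The 8 include Slc25a2, whose HH value rests on CC_l 1, with 206 counts there and 2 in CC_l 2.

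The promoters of the 3 members called in H, HC or HH are shown because these genes had lower levels together in HH. RefSeq windows (GRCm38.p6) from 250 bases before to 50 after the start were found for 36 of the 47 members. Capitals mark CCAAT boxes (CCAAT or ATTGG) and GC boxes (GGGCGG or CCGCCC), searched on both strands, which do not overlap each other here. The windows are chr12:108835827-108836126 for Slc25a29, chr19:43674832-43675131 for Slc25a28 and chr8:22398572-22398871 for Slc25a15, all on the minus strand and printed 5′ to 3′.
Slc25a29: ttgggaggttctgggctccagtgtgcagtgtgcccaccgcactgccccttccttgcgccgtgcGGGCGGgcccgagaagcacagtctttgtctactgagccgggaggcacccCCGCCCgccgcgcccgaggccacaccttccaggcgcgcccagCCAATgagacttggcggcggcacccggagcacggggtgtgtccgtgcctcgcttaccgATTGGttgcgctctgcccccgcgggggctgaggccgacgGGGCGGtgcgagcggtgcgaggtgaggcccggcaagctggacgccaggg
Slc25a28: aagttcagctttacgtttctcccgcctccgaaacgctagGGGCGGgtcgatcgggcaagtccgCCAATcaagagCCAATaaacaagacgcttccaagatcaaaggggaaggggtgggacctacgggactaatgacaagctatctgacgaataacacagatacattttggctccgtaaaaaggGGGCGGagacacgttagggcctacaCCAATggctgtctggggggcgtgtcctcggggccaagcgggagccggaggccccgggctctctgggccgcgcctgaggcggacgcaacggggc
Slc25a15: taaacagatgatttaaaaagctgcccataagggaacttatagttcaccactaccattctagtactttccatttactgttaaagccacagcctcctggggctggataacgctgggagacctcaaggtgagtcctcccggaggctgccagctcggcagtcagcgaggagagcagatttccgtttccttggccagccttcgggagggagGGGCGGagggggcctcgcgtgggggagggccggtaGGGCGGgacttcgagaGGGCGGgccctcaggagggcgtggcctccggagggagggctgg
Slc25a29 had 2 CCAAT boxes and 3 GC boxes, Slc25a28 3 and 2, and Slc25a15 none and 3. A GC box was present in 30 of the 36 member windows (83.3%), against 35.7% of 32851 windows of all genes, and a CCAAT box in 17 (47.2%), against 37.4%. The E-box CACGTG was present in 6 member windows (16.7%) and in 7.15% of all windows. Each member entered with its window nearest the annotated start, whereas the background held every window without a choice per gene. The shares are therefore not like for like. These are matches of letters, not measured binding. The Slc25a29 window reaches its head-to-head neighbour Slc25a47, whose annotated start lies 163 bases away on the other strand. Slc25a47 itself had 3.7, 5.16 and 1.61 CPM in C and 2.13, 2.72 and 1.25 CPM in H, and 2.91, 4.51 and 2.92 CPM in CC_s against 3.5, 2.41 and 3.67 CPM in HC. At the later ages it had 2.87 and 2.1 CPM in CC_l and 1.37 and 1.91 CPM in HH, and 2.27 and 4.94 CPM in CCC against 1.17 and 1.83 CPM in HHC. Its log2 fold change was -0.60 in HH (SE 0.73, edgeR adjusted p = 0.71) and -1.26 in HHC (SE 0.74, edgeR adjusted p = 0.56), neither a call. Its libraries overlapped those of the controls in H and HC and lay below them in HH and HHC.

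**Figure D5:**
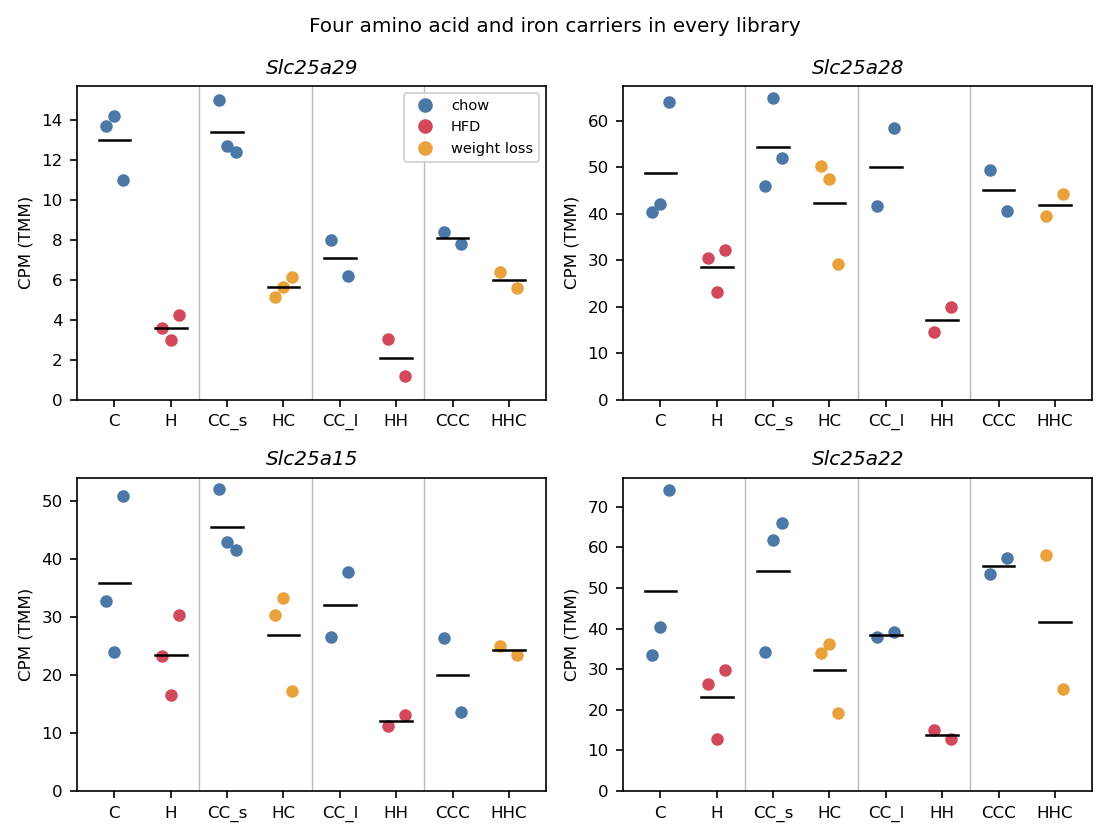
CPM of 4 carriers in every library (points) with the group mean (line), with vertical lines between the 4 comparisons and colours for chow, HFD and weight loss. Slc25a29 lies below its control in all 4 comparisons, and Slc25a28 and Slc25a15 are lowest in HH, at 14.5 to 19.9 and 11.2 to 13.1 CPM, while Slc25a22 is at 12.8 to 15 CPM in HH and 12.9 to 29.9 CPM in H.

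Of the iron carriers, the widely expressed mitoferrin Slc25a28 (ENSMUSG00000040414; chr19:43663801-43674881, minus strand) was called lower in HH. Its level was 40.4, 42.1 and 64.1 CPM in C and 30.5, 23.1 and 32.2 CPM in H, and 45.9, 65 and 52.1 CPM in CC_s against 50.4, 47.5 and 29.2 CPM in HC. In the long arm it was 41.7 and 58.5 CPM in CC_l and 14.5 and 19.9 CPM in HH, and 49.5 and 40.7 CPM in CCC against 39.6 and 44.3 CPM in HHC. All obese libraries lay below their controls, HH furthest, and the HC and HHC ranges overlapped those of their controls. The log2 fold change was -1.54 in HH (SE 0.37, adjusted p = 0.042), and -0.78 in H (SE 0.30, adjusted p = 0.19). The HH value was called in 11 of 13 alternatives, with adjusted p from 2.2e-05 to 0.46, and lost the call without HH 1 (-1.31) or CC_l 2 (-1.25). The H value was -1.06 (SE 0.30, adjusted p = 0.077), a call, without the 4 libraries rich in nuclear-retained RNA. It was -0.36 in HC (SE 0.30, adjusted p = 0.76) and -0.10 in HHC (SE 0.37, adjusted p = 0.98). The HH effect differed from the HHC effect by -1.43 (SE 0.52, edgeR adjusted p = 0.19), and DESeq2 gave that difference an adjusted p of 0.007. Slc25a37, needed for heme synthesis in red cell precursors, had 57.9, 41.3 and 24.8 CPM in C and 18.7, 28 and 17.6 CPM in H, and 20.1, 16.4 and 16.7 CPM in CC_s against 18.1, 19.4 and 37.1 CPM in HC. It had 16.7 and 16.6 CPM in CC_l and 27.1 and 25.1 CPM in HH, and 17.4 and 36.9 CPM in CCC against 29.5 and 13.2 CPM in HHC. Its 4 highest values were those of the 4 libraries rich in nuclear-retained RNA, and its log2 fold change in H was -0.95 (SE 0.40, adjusted p = 0.24). That value was -0.10 (SE 0.44, adjusted p = 0.97) without these libraries, -0.59 without C 1 and -1.21, a call, without C 3.

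The carriers of di- and tricarboxylates carry carbon between mitochondria and lipid synthesis, and none was called in any diet comparison. Slc25a1, the citrate carrier, measured 35.5, 54.3 and 277 CPM in C and 339, 190 and 298 CPM in H, and 162, 495 and 693 CPM in CC_s against 422, 320 and 39 CPM in HC. In the long arm it measured 377 and 360 CPM in CC_l and 188 and 186 CPM in HH, and 285 and 91.8 CPM in CCC against 123 and 112 CPM in HHC. Within C and within HC it differed widely between mice, and the libraries rich in nuclear-retained RNA held the lowest values. Its log2 fold change was 1.17 in H (SE 0.79, adjusted p = 0.47), which became 2.62 without C 3, a call, and 0.10 (SE 0.56, adjusted p = 0.99) without the 4 libraries rich in nuclear-retained RNA. It was -0.98 in HH (SE 0.96, adjusted p = 0.62), where both HH libraries lay below both CC_l libraries. Slc25a10, which exports malate and succinate for phosphate, had 42.5, 45.5 and 371 CPM in C and 343, 124 and 293 CPM in H, and 169, 317 and 366 CPM in CC_s against 240, 344 and 45.5 CPM in HC. At the later ages it had 375 and 341 CPM in CC_l and 142 and 139 CPM in HH, and 192 and 57.4 CPM in CCC against 169 and 125 CPM in HHC, and its fold change in HH was -1.35 on the log2 scale (SE 0.96, adjusted p = 0.48). Slc25a11, the oxoglutarate/malate carrier, gave 40.4, 38.1 and 125 CPM in C and 67.3, 52.7 and 67.2 CPM in H, and 90.3, 110 and 116 CPM in CC_s against 120, 91.1 and 26.6 CPM in HC. It gave 70.7 and 89.3 CPM in CC_l and 55.2 and 57.9 CPM in HH, and 92.1 and 34 CPM in CCC against 73.4 and 105 CPM in HHC, with -0.50 in HH (SE 0.63, adjusted p = 0.72). All 4 members of this group were negative in HH, with a median of -1.17, while the H median was 0.30. The oxodicarboxylate carrier Slc25a21 did not exceed 2.18 CPM outside CC_l 1.

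Carriers of adenine nucleotides and phosphate supply ATP synthase. Slc25a4, the leading ADP/ATP carrier, stood at 133, 131 and 500 CPM in C and 298, 198 and 306 CPM in H, and 327, 459 and 483 CPM in CC_s against 645, 477 and 98.1 CPM in HC. In the later groups it stood at 373 and 467 CPM in CC_l and 273 and 247 CPM in HH, and 381 and 131 CPM in CCC against 222 and 509 CPM in HHC. The HH libraries were below those of CC_l (log2 fold change -0.69, SE 0.78, adjusted p = 0.68), while H lay within the wide range of C. Slc25a3, the phosphate carrier, had 318, 261 and 1016 CPM in C and 379, 324 and 454 CPM in H, and 619, 690 and 717 CPM in CC_s against 637, 562 and 189 CPM in HC. Later it had 437 and 620 CPM in CC_l and 329 and 389 CPM in HH, and 641 and 263 CPM in CCC against 450 and 795 CPM in HHC. Its log2 fold change was -0.46 in H (SE 0.55, adjusted p = 0.7), which became 0.41 without C 3 and -1.28 (SE 0.35, adjusted p = 0.067) without the 4 libraries rich in nuclear-retained RNA, and -0.56 in HH (SE 0.67, adjusted p = 0.7). Slc25a5, the ADP/ATP carrier of dividing cells, measured 83.3, 160 and 104 CPM in C and 123, 185 and 88 CPM in H, and 85.3, 100 and 103 CPM in CC_s against 297, 107 and 50.9 CPM in HC. It measured 169 and 246 CPM in CC_l and 227 and 346 CPM in HH, and 182 and 83.7 CPM in CCC against 52.8 and 393 CPM in HHC, with 0.47 in HH (SE 0.78, adjusted p = 0.8). Of its 50-base transcript words, 33.8% also occur in 9 other annotated genes, so its counts are uncertain. None of these carriers was called by the edgeR test over all 20 libraries, while Slc25a3 was called in H in 2 of 15 alternatives.

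The calcium-regulated ATP-Mg/phosphate carriers set the adenine nucleotide pool of the matrix. Slc25a24 had 21.1, 19.3 and 36.8 CPM in C and 39.1, 41.4 and 43.4 CPM in H, and 54.5, 36.2 and 36.8 CPM in CC_s against 42.4, 41.5 and 43.6 CPM in HC. From 31 weeks of age on it had 20.9 and 26.1 CPM in CC_l and 37.3 and 53.2 CPM in HH, and 25 and 25.1 CPM in CCC against 55.5 and 34.6 CPM in HHC. All H, HH and HHC libraries lay above their controls while HC and CC_s overlapped, and the log2 fold changes of 0.68 in H (SE 0.30, adjusted p = 0.26), 0.95 in HH (SE 0.37, adjusted p = 0.2) and 0.84 in HHC (SE 0.37, adjusted p = 0.43) were not calls. The H value was 1.03, a call, without C 3 and 0.28 (SE 0.38, adjusted p = 0.73) without the 4 libraries rich in nuclear-retained RNA. Slc25a23 pointed the other way, with 34.3, 33 and 117 CPM in C and 52.9, 17.3 and 46.6 CPM in H, and 69.7, 122 and 141 CPM in CC_s against 124, 116 and 22.9 CPM in HC. At the later ages it gave 86.9 and 89.8 CPM in CC_l and 22.8 and 33.2 CPM in HH, and 85.8 and 46.3 CPM in CCC against 61.8 and 73 CPM in HHC. In HH its log2 fold change was -1.66 (SE 0.74, edgeR adjusted p = 0.26), and in H it was -0.66 (SE 0.59, adjusted p = 0.6), or 0.21 without C 3 and -1.48 (SE 0.47, adjusted p = 0.1), a call, without the 4 libraries rich in nuclear-retained RNA. The HH value was called in 4 of 13 alternatives, among them the fit without those libraries (-1.68, SE 0.45, adjusted p = 0.044). Slc25a25, another such carrier, stood at 35.7, 34.6 and 114 CPM in C and 59.6, 42 and 76.9 CPM in H, and 33.1, 48.5 and 115 CPM in CC_s against 59.4, 86.1 and 28.3 CPM in HC. It stood at 51 and 56.8 CPM in CC_l and 31.3 and 36.3 CPM in HH, and 72.1 and 49.6 CPM in CCC against 45.8 and 40.9 CPM in HHC, with -0.67 in HH (SE 0.63, adjusted p = 0.6).

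Fatty acid and cofactor carriers showed no call in the diet comparisons. Slc25a20, which brings acylcarnitines in for oxidation, measured 35.6, 37.6 and 79.7 CPM in C and 62.6, 73.7 and 69.3 CPM in H, and 71, 66.9 and 64.4 CPM in CC_s against 118, 76.1 and 44.5 CPM in HC. In the later groups it measured 55.6 and 67.8 CPM in CC_l and 81.7 and 83.5 CPM in HH, and 61.4 and 44.6 CPM in CCC against 103 and 71.4 CPM in HHC. Both HH and both HHC libraries lay above their controls, and the log2 fold change in HH was 0.42 (SE 0.45, adjusted p = 0.66). Slc25a51, the NAD carrier, had 105, 105 and 346 CPM in C and 124, 134 and 167 CPM in H, and 178, 203 and 173 CPM in CC_s against 199, 202 and 167 CPM in HC. It had 162 and 202 CPM in CC_l and 112 and 126 CPM in HH, and 158 and 136 CPM in CCC against 276 and 170 CPM in HHC. Its value was -0.39 in H (SE 0.41, adjusted p = 0.66), or 0.43 without C 3 and -1.18 (SE 0.31, adjusted p = 0.061), a call, without the 4 libraries rich in nuclear-retained RNA. In HH it was -0.61 (SE 0.50, adjusted p = 0.54). Slc25a33, a pyrimidine nucleotide carrier induced by insulin signalling, varied widely, with 11.1, 6.7 and 74.2 CPM in C and 14.1, 9.4 and 23.6 CPM in H, and 45.1, 47.6 and 55.3 CPM in CC_s against 21.1, 26.1 and 11.3 CPM in HC. Later it gave 27.6 and 18.5 CPM in CC_l and 7.98 and 12.8 CPM in HH, and 29 and 5.6 CPM in CCC against 25.7 and 26.1 CPM in HHC. All HC and HH libraries lay below their controls, with log2 fold changes of -1.34 in HC (SE 0.71, adjusted p = 0.59) and -1.15 in HH (SE 0.87, adjusted p = 0.5). In H it was -0.97 (SE 0.70, adjusted p = 0.51), 0.82 without C 3 and -2.13 (SE 0.44, adjusted p = 0.03) without the 4 libraries rich in nuclear-retained RNA. The coenzyme A carrier Slc25a42 had 23.1, 28.5 and 14.2 CPM in C and 7.68, 5.06 and 11.1 CPM in H, and 12.6, 15.2 and 12.9 CPM in CC_s against 8.11, 15.9 and 28.5 CPM in HC, and -1.47 in H (SE 0.51, edgeR adjusted p = 0.15). At the later ages it had 8.84 and 16 CPM in CC_l and 6.02 and 5.18 CPM in HH, and 11.1 and 27.2 CPM in CCC against 31.8 and 11.3 CPM in HHC. The HH libraries lay below those of CC_l, with -1.15 (SE 0.63, adjusted p = 0.35). The H value was called in 7 of 15 alternatives, among them DESeq2 (-1.58, adjusted p = 0.039) and the fits without C 3 (-1.70) or H 3 (-1.79), and was -0.73 (SE 0.59, adjusted p = 0.53) without the 4 libraries rich in nuclear-retained RNA. Of the 10 members of this group, 6 were negative in HH (median -0.72), 7 in H (median -0.47) and 2 in HHC (median 0.37).

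Some carriers known from germ cells, and others of low level, stood high in 1 or 2 libraries. Slc25a31, the ADP/ATP carrier of sperm, had 7.99 CPM in CC_l 1 and at most 0.893 CPM in the other 19 libraries, 8 of which held no count. Slc25a41 had 5.95 CPM in CC_l 1 and 3.97 CPM in HC 3, and 14 libraries were at 0. Slc25a2, Slc25a54 and Slc25a21 had 6.28, 6.04 and 6.16 CPM in CC_l 1. These are the libraries with the highest spermatid marker sums, 3521 CPM in CC_l 1 and 551 CPM in HC 3. Without CC_l 1 the member median of the HH comparison was -0.74. The uncoupling protein-like members Slc25a14, Slc25a27 and Slc25a30 had no call in the diet comparisons, and neither did the 9 members without a settled substrate. Of the latter, Slc25a48 measured 9.37, 2.58 and 6.81 CPM in C and 0, 0.163 and 1.34 CPM in H, and 1.32, 1.35 and 4.31 CPM in CC_s against 0.893, 2.81 and 1.98 CPM in HC, with -3.65 in H (SE 1.31, edgeR adjusted p = 0.16). The later groups had 0.915 and 1.96 CPM in CC_l and 1.55 and 0.272 CPM in HH, and 1.31 and 5.16 CPM in CCC against 4.36 and 0.323 CPM in HHC, and both pairs overlapped. The H value was called in 5 of 15 alternatives, among them DESeq2 (-3.74, adjusted p = 0.017) and the fit without H 3 (-6.09).

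Carriers of the same fold with other symbols included 1 that was called. Ucp2, an uncoupling protein that macrophages also express, was called higher in H, HC and HH, where 3.57%, 1.57% and 4.92% of all genes were. It measured 15, 26.2 and 18.4 CPM in C and 321, 355 and 126 CPM in H, and 21.7, 54 and 49.8 CPM in CC_s against 229, 138 and 87.2 CPM in HC. In the later groups it measured 70.3 and 90.8 CPM in CC_l and 217 and 361 CPM in HH, and 81.7 and 53.2 CPM in CCC against 151 and 164 CPM in HHC. All libraries of H, HC, HH and HHC lay above their controls, and the log2 fold change was 3.75 in H (SE 0.51, adjusted p = 0.0021), 1.85 in HC (SE 0.47, adjusted p = 0.53), 1.84 in HH (SE 0.58, adjusted p = 0.11) and 1.22 in HHC (SE 0.57, adjusted p = 0.46). Of the 10 macrophage markers, 7 were called higher for H, 7 for HC and 9 for HH. For HHC, 0 were called higher and 1, Cd163, was called lower. The summed macrophage markers overlapped between CCC, at 869 to 908 CPM, and HHC, at 885 to 1665 CPM. What part these markers had in the Ucp2 values was not tested. Ucp1, the uncoupling protein of brown fat, did not exceed 2.35 CPM, and Ucp3, Mtch1 and Mtch2 were not called.

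Inner membrane transporters outside the family and the import machinery of carriers were tested as fixed lists of 21 and 13 genes. Of the transporters, 1 was called lower in each of H and HH, where 2.92% and 1.88% of all tested genes were, and 0 after WL. Mcub alone was called higher, in HH, where 4.92% of genes were. Sfxn1, the serine transporter, held both calls downward, with 338, 385 and 945 CPM in C and 118, 92.9 and 199 CPM in H, and 537, 698 and 694 CPM in CC_s against 359, 331 and 165 CPM in HC. From 31 weeks of age on it had 398 and 568 CPM in CC_l and 105 and 116 CPM in HH, and 507 and 377 CPM in CCC against 257 and 332 CPM in HHC. The log2 fold change was -2.02 in H (SE 0.47, adjusted p = 0.032), -1.17 in HC (SE 0.45, adjusted p = 0.54), -2.13 in HH (SE 0.57, adjusted p = 0.063) and -0.59 in HHC (SE 0.55, adjusted p = 0.74). Mcub, the inhibitory subunit of the calcium uniporter, had a log2 fold change of 3.01 in HH (SE 0.79, adjusted p = 0.058). Of the import machinery, which delivers carriers to the inner membrane, 0 genes were called in H, HC and HH. In these, 6.49%, 1.74% and 6.79% of all genes were called in either direction. Agk was called lower in HHC (log2 fold change -1.46, SE 0.49, adjusted p = 0.3), where 2.67% of genes were. The list medians in HH were -0.25 for the transporters and -0.58 for the import machinery, beside -0.23 for all genes and -0.69 for the Slc25 members.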

How the data were processed

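TRAP–seq libraries of 20 mice in 8 groups were analysed. Per the labels and the study's methods, the authors trimmed reads with Trim Galore 0.6.6, aligned them to mm10 with HISAT2 2.2.1 and assigned them to genes with Subread 2.0.1, and they deposited raw read counts per gene. Whether reads were counted by strand, and how read pairs were counted, is not given in the sources used here, and 89.6% to 95.8% of nonzero counts up to 10 were even. Symbols, positions and exon lengths came from GENCODE vM21 and covered 98.2% of genes. Counts were filtered with filterByExpr, scaled with TMM and tested with edgeR 4.0.16 (quasi-likelihood, R 4.3.3), all groups in 1 fit, with Benjamini–Hochberg adjustment over 21464 genes. DESeq2 1.42.0 and the settings described in the closing section were alternatives, and the fitting script was tested on simulated data. The members and gene lists were chosen with earlier results of these data known. Described in every library were members called in a diet comparison, the 6 highest per exon length and a fixed set of 16 (Slc25a18 and Slc25a31, near the limit of detection, by range); other members with library values (Slc25a12, Slc25a22, Slc25a23, Slc25a24, Slc25a42 and Slc25a48) were chosen after their values were seen. A limit of 3 counts equals 0.0815 to 0.251 CPM and covers counting error only. Levels were compared between genes only as CPM per kb of exon.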

Additional observations from a re-analysis of the deposited data

How the results depend on the processing

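Of 595 values of 43 named fold changes under the alternatives, 514 kept their direction and side of the threshold, 12 changed sign, 17 were no longer called and 52 were newly called. Of 220 counts and medians, 160 kept within 1.5 times the count or within 0.27, the spread of the family median between mice of a group. The causes of the changes were not tested.

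Shares in brackets are those of all tested genes called in either direction. In H against C, the 1 member called (6.49%) became 3 with RLE scaling (6.52%) and 4 without the filter on low counts (7.24%). It became 2 with the replicate block (4.81%), with halved counts (7.76%) and without the top 1% of genes (6.5%). When just H and C were fitted (and likewise below) it became 2 (8.53%), and with DESeq2 4 (10.1%). Leaving out single mice gave 1 to 6 calls (3.55% to 8.48%) and a family median of -0.45 to 0.24, the latter without C 3. In HC against CC_s, the 1 call (1.74%) became 3 without the filter (5.12%), 2 with only the compared groups (1.52%) and 2 with DESeq2 (3.39%). By adjusted p it became 0 (0%), and with single mice left out 0 to 1 (0.744% to 2.79%). In HH against CC_l, 3 calls (6.79%) became 9 with only the compared groups (10.7%) and 1 by adjusted p (2.07%). With single mice left out its family median ran from -0.84 to -0.64. In HHC against CCC, the 1 call (3.12%) became 0 under RLE scaling (2.69%), the replicate block (1.75%) and halved counts (2.88%). Removal of the top 1% of genes (3.03%), the compared groups alone (1.38%) and adjusted p (0%) also gave 0, and DESeq2 gave 2 (5.52%). Its family median ran from -0.07 to 0.25 with single mice left out. Between chow groups, the 2 calls of CC_s against C (2.45%) became 0 with the replicate block (1.42%), 1 with halved counts (3.07%) and 0 with only the compared groups (1.98%). By adjusted p they became 0 (0%). With single mice left out they became 0 to 10 (0.601% to 10.2%), the 10 without C 3. The 1 call of CCC against CC_l (2.66%) became 3 without the filter (5.59%), 2 without the top 1% of genes (2.95%) and 0 with only the compared groups (1.3%). DESeq2 gave 3 (4.76%) and adjusted p 0 (0%). Tests of differences between effects called 0 members, except 2 (Slc25a28 and Slc25a15) with DESeq2 for the HH against the HHC effect, whose family median ran from -1.04 to -0.52 with single mice left out.

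The following settings were added after seeing the data. They concern the 4 libraries rich in nuclear-retained RNA (C 1, C 2, HC 3 and CCC 2). With these left out, C and CCC keep 1 mouse each, which is assumed to vary like the other groups, as is the lone mouse when 1 of the long arm is left out. Calls were then 9 in H, 0 in HC, 9 in HH, 2 in HHC and 0 in CC_s against C, where 8.51%, 1.05%, 10.8%, 0.964% and 0.736% of all genes were called. With log2 nuclear-retained RNA as a covariate they were 10 in H, 2 in HC, 10 in HH, 2 in HHC, 0 in CC_s against C and 4 in CCC against CC_l, at 12.6%, 2.28%, 15%, 3.53%, 1.02% and 5.77% of all genes, and the HH median was -0.99.

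The Slc25a28 value in HHC (-0.10) was 0.03 with RLE, 0.04 with halved counts, 0.03 with only the compared groups, 0.03 with DESeq2 and 0.04 without CCC 1 (-0.24 to 0.04 over single mice left out). That of Slc25a15 in HHC (0.28) was -0.12 without CCC 2, 0.82 without CCC 1 and -0.04 without the 4 libraries. The H values of Slc25a23, Slc25a3, Slc25a33, Slc25a44 and Slc25a51 were above 0 without C 3, and leaving out single mice gave ranges of -0.96 to 0.21, -0.79 to 0.41, -1.45 to 0.82, -1.34 to 0.03 and -0.68 to 0.43. Same-numbered mice of compared groups did not deviate together (correlations of -0.277 to 0.192), so the numbers were not taken as pairs. With the number as a block, H against C called 2 members (4.81% of all genes) and HC against CC_s 1 (0.95%). HH against CC_l then called 2 (4.85%) and HHC against CCC 0 (1.75%), and medians were -0.26, 0.03, -0.67 and 0.16.

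With 2 or 3 mice a group and a biological coefficient of variation of 0.68, a member that was not called may still differ. Slc25a31, Slc25a34 and Slc25a41 were above 3 counts in 10, 9 and 4 of 20 libraries, so this depth limits what can be said of them. The call of Slc25a18 rests on 41 counts in CCC.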
